A study of Mus musculus with 6 samples.

Results

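The genes described here are 40 genes of mitosis, the stage at which a cell separates its copied chromosomes and divides, in RNA-seq libraries of the mouse embryonic lung. They were listed by symbol for what they do, with earlier results of these libraries known, and all 40 were found among the 14162 genes of the deposited tables. There were 3 Dnmt1KO libraries, labelled ShhCre-Dnmt1KO, from lungs in which Cre recombinase from the Shh locus deletes Dnmt1. The other 3 libraries were from wild-type littermates and are called WT. All lungs were taken whole at E12.5, with no treatment or sorting step in the labels, which do not say whether the WT littermates carry Cre. Nor do they say how many embryos went into a library, and the p-values therefore reflect how far these libraries vary, which may be technical variation. Shh is expressed in the endoderm that forms the airway epithelium, so Cre acts in that layer, while the mesenchyme, vessels and blood cells in the same lung keep Dnmt1. The epithelial lineage gene Nkx2-1 was present in every library, with log2 values, in the order of replicates 1, 2 and 3, of 13.82, 13.48 and 14.09 for Dnmt1KO and of 14.04, 14.23 and 14.08 for WT. Replicate values are given in that order throughout.

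Mitosis is driven by the kinase CDK1 bound to cyclins A and B. Its genes are transcribed late in the cell cycle, mainly by MuvB complexes that contain B-MYB and recruit FOXM1, and are repressed in resting or arrested cells by the DREAM complex, to which p53 contributes through the inhibitor p21. Because of this shared timing the RNA of these genes is widely used as a measure of how many cells in a tissue are dividing. The early lung bud is a growing organ in which both epithelium and mesenchyme divide. DNMT1 copies DNA methylation onto new strands as DNA is replicated, which places its loss within the cell cycle, and the comparison asks whether the RNA of the division machinery differed in the Dnmt1KO lungs.

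The deposited values are log2 of reads plus an offset of 0.5, scaled by a constant of each library, and a difference of 1 is a doubling. Whole read numbers recovered from them came to between 18192629 and 21046831 per library in Dnmt1KO and between 20599736 and 25597662 in WT. The mitosis genes were well covered, with between 683 and 21324 reads per gene and library, and all 40 lay above the 25% of genes with the lowest means. Dnmt1 itself stood at 15.57, 15.40 and 15.31 in Dnmt1KO and 15.72, 15.74 and 15.76 in WT, lower in each Dnmt1KO library than in each WT library without passing the test, and the labels do not name the deleted exons (log2 difference -0.31 ± 0.09 SE, limma adjusted p = 0.507). Dnmt1KO replicate 1 had 3 reads over Ddx3y, Eif2s3y, Kdm5d and Uty, which lie on the Y chromosome, and the remaining 5 libraries had 4155 to 5207, which leaves the sexes unbalanced between the groups.

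No mitosis gene passed the test between Dnmt1KO and WT lungs, and the differences were small. Of the 40, limma called 0 higher and 0 lower at an adjusted p under 0.05, and 0 had an unadjusted p under 0.05. Over all genes tested the shares were 0.282% called higher, 0.00706% called lower, 0.29% called in either direction and 4.52% at an unadjusted p under 0.05. With voom on the recovered reads the counts of mitosis genes were also 0 called and 0 at an unadjusted p under 0.05. The log2 differences, Dnmt1KO minus WT, ran from -0.16 for Ncapd2 to 0.14 for Cdc25c, or 0.896-fold to 1.10-fold, with 19 genes above and 21 below 0. The smallest unadjusted p was 0.198, for Plk4, and the limma adjusted p was 0.9999 for every member. The groups overlapped in all 40 genes, and the share of all genes without overlap was 8.78%. Most of the 40 moved together between libraries, as described below, so their overlaps are not separate outcomes.

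The fit to all 6 libraries also bounds the difference of each gene, given the spread between these libraries. The 95% intervals of the 40 differences, each taken singly from the limma fit, all held 0 and all lay inside a 1.5-fold change in either direction (0.58 on the log2 scale). The lowest bound was -0.55, for Ncapd2, and the highest 0.48, for Cdc25c, which correspond to 0.682-fold and 1.40-fold. They are bounds on the RNA of the whole lung and not of its epithelium. They also depend on the libraries included. With 1 library left out, the difference itself reached -0.31 for Ncapd2 and 0.26 for Cdc25c. Of all 14162 genes, 72.0% had an interval inside 1.5-fold. They include genes with far fewer reads than any of the 40, so the shares are not of genes at like levels.

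**Figure D1:**
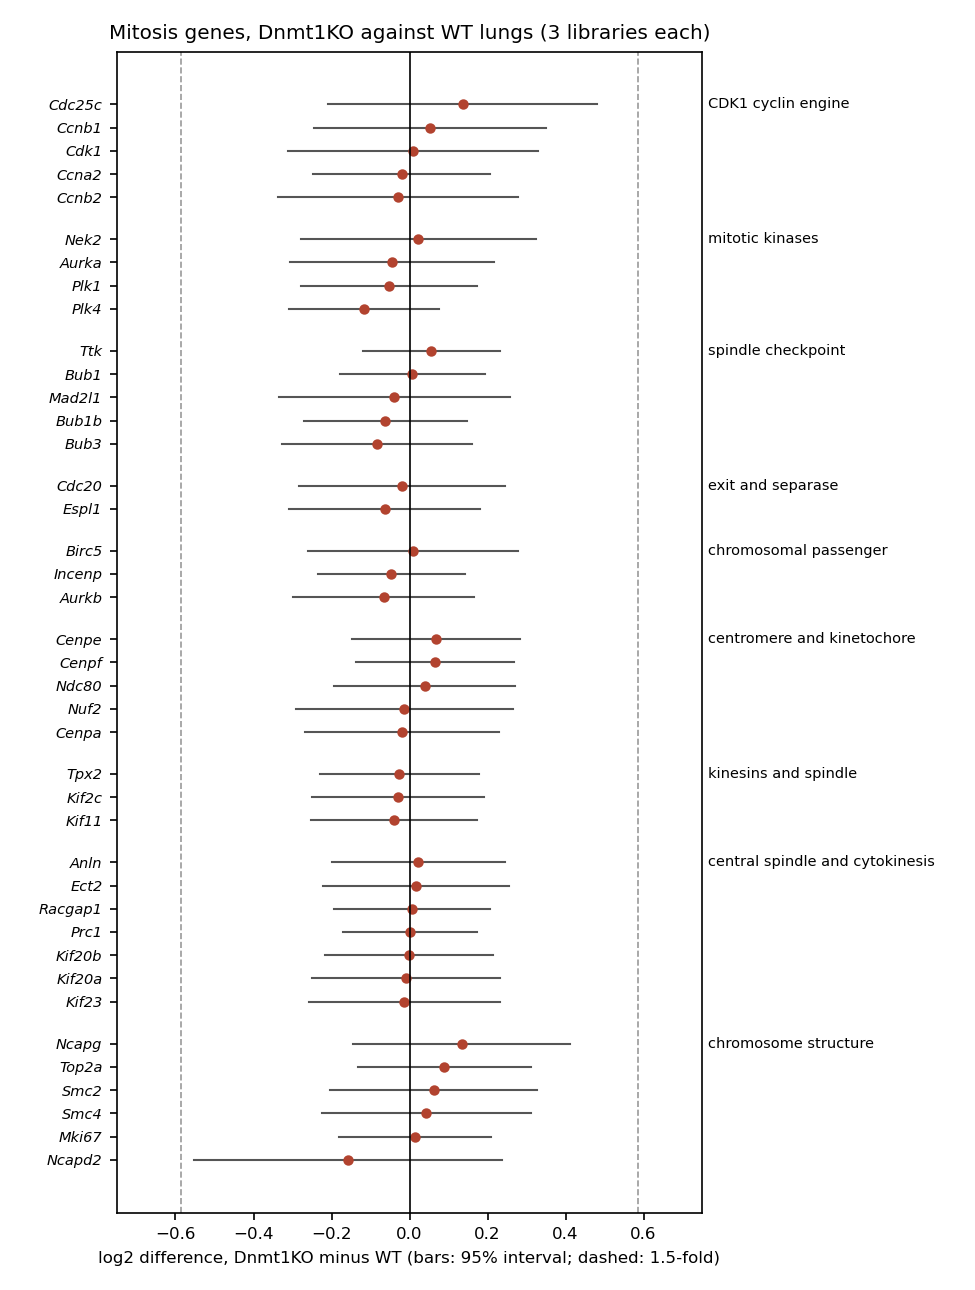
Log2 difference, Dnmt1KO minus WT, of each of the 40 mitosis genes (points) with its 95% interval (bars) from the limma fit to 3 libraries per group, in blocks by role. The dashed lines mark a 1.5-fold change, and every bar crosses 0 and ends inside them, the widest being that of Ncapd2 (-0.55 to 0.24).

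The genes of the CDK1 engine, 5 in number, had a median difference of 0.0084, with 3 above and 2 below 0. Cdk1, the kinase itself, had log2 values of 14.09, 14.06 and 14.43 in Dnmt1KO and of 13.92, 14.34 and 14.29 in WT, a difference of 0.0084 ± 0.14 (SE). The 3 Dnmt1KO values lay inside or just beyond the WT range, with Dnmt1KO replicate 3 highest and WT replicate 1 lowest. Ccnb1, which encodes cyclin B1, the partner that brings cells into mitosis, stood at 14.27, 14.08 and 14.32 in Dnmt1KO and at 13.89, 14.29 and 14.33 in WT (difference 0.052 ± 0.13). The 3 Dnmt1KO values of Ccnb1 all lay between the lowest and highest WT value. Ccnb2 (cyclin B2, difference -0.030) and Ccna2 (cyclin A2, which acts in S phase and early mitosis, -0.020) were as close. Cdc25c, the phosphatase that removes inhibitory phosphates from CDK1, had values of 11.93, 11.76 and 12.32 in Dnmt1KO and of 11.72, 11.88 and 12 in WT. Its difference of 0.14 ± 0.15, at the top of the list, rested on Dnmt1KO replicate 3, and without that library it was -0.023.

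Among the mitotic kinases, Plk4, which starts the duplication of centrioles, had the smallest p. Its values were 13.06, 13.08 and 13.09 in Dnmt1KO and 13.07, 13.22 and 13.29 in WT, a difference of -0.12 ± 0.08 (limma adjusted p = 0.9999, 95% interval -0.31 to 0.074). The Dnmt1KO values of Plk4 were close together, and WT replicate 1 lay among them. Plk1, which acts from mitotic entry to cytokinesis, stood at 14.10, 13.79 and 13.98 in Dnmt1KO and at 13.92, 14.11 and 13.99 in WT (-0.053 ± 0.10), with Dnmt1KO replicate 2 lowest. Aurka, the centrosomal Aurora kinase that TPX2 activates, differed by -0.044, and Nek2, which helps centrosomes to part, by 0.023.

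The spindle checkpoint holds chromosome separation back until every kinetochore is attached. Bub3, which brings BUB1 and BUBR1 to kinetochores, had values of 14.24, 14.17 and 14.47 in Dnmt1KO and of 14.25, 14.36 and 14.51 in WT, a difference of -0.083 ± 0.11. Ttk, the MPS1 kinase at the head of the checkpoint, had 12.96, 12.91 and 12.90 in Dnmt1KO against 12.83, 12.83 and 12.95 in WT, a difference of 0.056 ± 0.08. Ttk varied by only 0.13 log2 units over all 6 libraries, where the median range of the 40 genes was 0.32. Bub1b, which encodes BUBR1, had 14.58, 14.49 and 14.65 in Dnmt1KO and 14.50, 14.63 and 14.77 in WT (-0.062 ± 0.09), with WT replicate 3 highest. Mad2l1, the checkpoint inhibitor of CDC20 (-0.039), and the kinase gene Bub1 (0.0076) completed the group, whose median was -0.039.

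Both genes of mitotic exit were below WT in mean by less than the spread between libraries. Cdc20, which activates the anaphase-promoting complex, had a difference of -0.019 ± 0.12. Espl1, which encodes separase, the protease that cuts cohesin at anaphase, had values of 14.21, 13.86 and 13.88 in Dnmt1KO and of 14.11, 14.00 and 14.03 in WT (-0.064 ± 0.11). Dnmt1KO replicate 1 was the highest of the 6 for Espl1, and without it the difference was -0.18. In the chromosomal passenger complex, which corrects wrong attachments, the kinase gene Aurkb had values of 13.82, 13.51 and 13.74 in Dnmt1KO and of 13.68, 13.87 and 13.72 in WT (-0.066 ± 0.10). The scaffold gene Incenp (-0.046) and the survivin gene Birc5 (0.0082) differed by less.

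The 5 centromere and kinetochore genes had a median difference of 0.039. Cenpe, a kinesin that carries chromosomes to the spindle equator, had values of 14.28, 14.13 and 14.33 in Dnmt1KO and of 14.08, 14.13 and 14.32 in WT (0.069 ± 0.09), nearly the same span in both groups. Cenpf, a large kinetochore protein of G2 and mitosis, stood at 14.80, 14.66 and 14.83 in Dnmt1KO and at 14.58, 14.77 and 14.75 in WT (0.065 ± 0.09). WT replicate 1 was the lowest library for both genes. Ndc80, part of the complex that grips microtubules, differed by 0.039. Its partner Nuf2 differed by -0.014 and Cenpa, the histone H3 variant that marks centromeres, by -0.019. The spindle motors and their partners gave Kif11, the kinesin that pushes spindle poles apart, at 14.42, 14.25 and 14.36 in Dnmt1KO and at 14.23, 14.47 and 14.45 in WT (-0.039 ± 0.09). The microtubule-depolymerizing kinesin gene Kif2c (-0.030) and the spindle assembly factor gene Tpx2 (-0.026) lay beside it.

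Genes of the central spindle and of cytokinesis stayed closest to WT among the 9 roles, with 7 differences between -0.014 and 0.023. Anln, which encodes anillin, the scaffold of the cleavage furrow, had values of 14.11, 13.90 and 13.98 in Dnmt1KO and of 13.84, 13.96 and 14.11 in WT (0.023 ± 0.10). Prc1, which bundles the microtubules of the central spindle, varied by 0.13 over all libraries and differed by 0.0008. Kif23 and Racgap1, which together form the centralspindlin complex, differed by -0.014 and 0.0062. Ect2, the RhoA exchange factor that they recruit, differed by 0.017, and the kinesin genes Kif20a and Kif20b by -0.0092 and -0.0002.

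The genes of chromosome structure held both the lowest difference and some of the highest. Mki67, which encodes the Ki-67 protein that coats mitotic chromosomes and serves as the common stain for dividing cells, had values of 16.55, 16.36 and 16.32 in Dnmt1KO and of 16.38, 16.41 and 16.41 in WT. The WT values of Mki67 were nearly equal and lay inside the Dnmt1KO range, and the difference was 0.014 ± 0.08, with a 95% interval of -0.18 to 0.21. Top2a, the topoisomerase that untangles sister chromatids, stood at 16.39, 16.22 and 16.43 in Dnmt1KO and at 16.12, 16.27 and 16.38 in WT (0.090 ± 0.10). For the condensin subunit gene Ncapg the values were 13.33, 13.18 and 13.39 in Dnmt1KO and 12.91, 13.34 and 13.24 in WT, a difference of 0.13 ± 0.12. Without WT replicate 1, in which Ncapg was lowest, that difference was 0.0065. Ncapd2, another condensin subunit gene, had 15.43, 15.09 and 15.68 in Dnmt1KO and 15.25, 15.69 and 15.73 in WT, a difference of -0.16 ± 0.17. The range of Ncapd2 over the 6 libraries, 0.64, was the widest of the 40, and in the GENCODE annotation the small nucleolar RNA gene Scarna10 overlaps its exons on the same strand, so their reads may not be separable. Smc2 and Smc4 encode the ATPase core of condensin. Smc2 had 14.49, 14.41 and 14.69 in Dnmt1KO and 14.25, 14.57 and 14.58 in WT (0.063 ± 0.12), and Smc4 differed by 0.043.

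**Figure D2:**
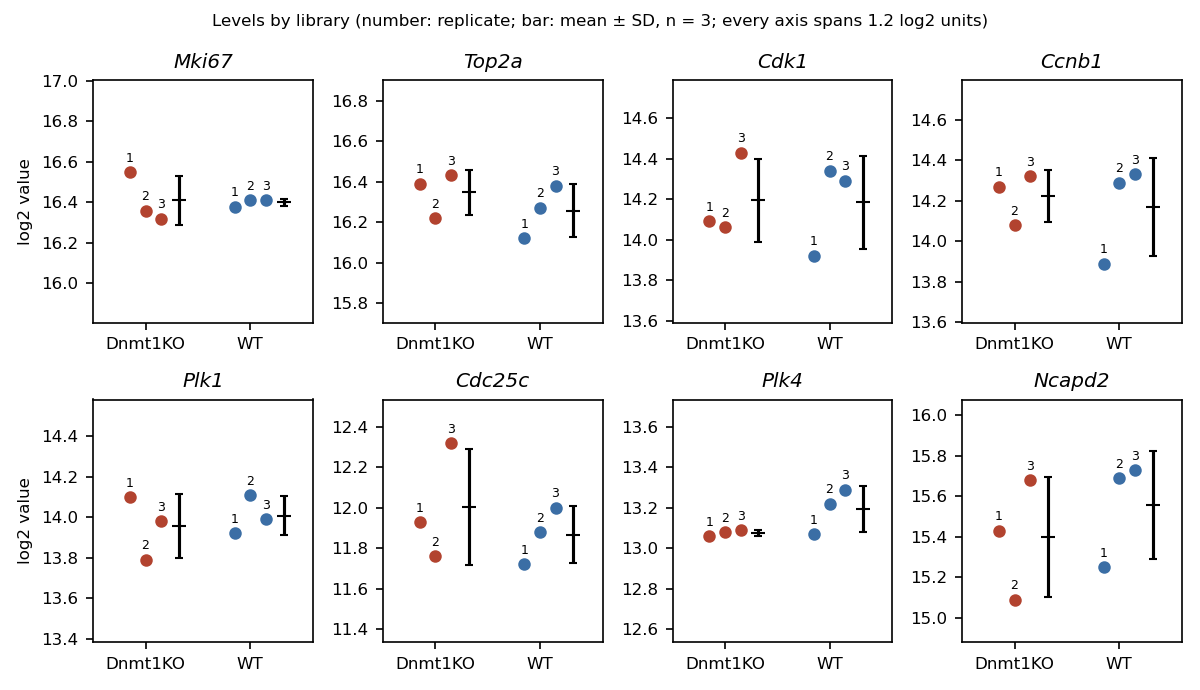
Log2 values of 8 mitosis genes in the 3 Dnmt1KO libraries (left in each panel) and the 3 WT libraries (right), each point a library with its replicate number, with the mean and SD beside them. Groups overlap in every panel, and Dnmt1KO replicate 2 or WT replicate 1 is the lowest point for Top2a, Cdk1, Ccnb1, Plk1, Cdc25c and Ncapd2, while Mki67 is lowest in Dnmt1KO replicate 3 and Plk4 in Dnmt1KO replicate 1.

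Per kilobase of annotated exon, the same 3 genes stood highest and the same pair lowest in both groups. Cdc20 had the highest level, at 110.4 ± 12 RPKM (reads per kilobase of exon and per 1000000 reads of the library) in Dnmt1KO against 110.7 ± 12 in WT (SD, 3 libraries each). Top2a followed at 90.8 ± 6.8 in Dnmt1KO and 84.6 ± 7.8 in WT, and Mki67 at 85.5 ± 7.5 in Dnmt1KO and 83.6 ± 1.2 in WT, so that these neighbours did not differ beyond their spread. Cdc25c was the lowest of the 40, at 8.30 ± 1.7 in Dnmt1KO and 7.39 ± 0.73 in WT, next to Ndc80 at 8.72 ± 0.49 in Dnmt1KO and 8.42 ± 0.83 in WT. The WT level of the median member stood at percentile 85.1 of the 13967 genes with an annotated length, and that of Cdc25c at percentile 50.9. The lengths are of all exons of a gene in GENCODE M21 on GRCm38, and the length that the authors' counting covered is not given in the sources used here.

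Libraries of the same group differed more than the groups did, and most mitosis genes moved together between them. Summed over the 40 genes, the Dnmt1KO libraries had 8071, 7172 and 8259 CPM (reads per 1000000 reads of the library), and the WT libraries had 7058, 7980 and 8248. The means were 7834 ± 581 for Dnmt1KO and 7762 ± 624 for WT (SD over 3 libraries). Dnmt1KO replicate 2 and WT replicate 1 thus stood apart from the other 4 libraries, 1 in each group. Measured from each gene's mean over the 6 libraries, the log2 median of the 40 was 0.029, -0.12 and 0.10 for Dnmt1KO and -0.16, 0.076 and 0.085 for WT, while the median of all genes lay between -0.0011 and 0.0051. This pattern was noticed in these values and is given as a description.

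Gene by gene, 37 of the 40 (92.5%) were lowest among the Dnmt1KO libraries in replicate 2 and 37 were lowest among the WT libraries in replicate 1, with 35 doing both (the exceptions being Mki67, Plk4, Ttk, Espl1 and Incenp). Over all 14162 genes these shares were 29.9% and 37.2%, and 14.5% for both. Among all 6 libraries, WT replicate 1 was lowest for 23 mitosis genes and Dnmt1KO replicate 2 for 14, and neither was highest for any of the 40. The others were Mki67, lowest in Dnmt1KO replicate 3, Plk4, lowest in Dnmt1KO replicate 1, and Ttk, lowest in WT replicate 2. Dnmt1KO replicate 3 was the highest for 15 genes, Cdk1, Ccnb2, Birc5 and Cdc25c among them.

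**Figure D3:**
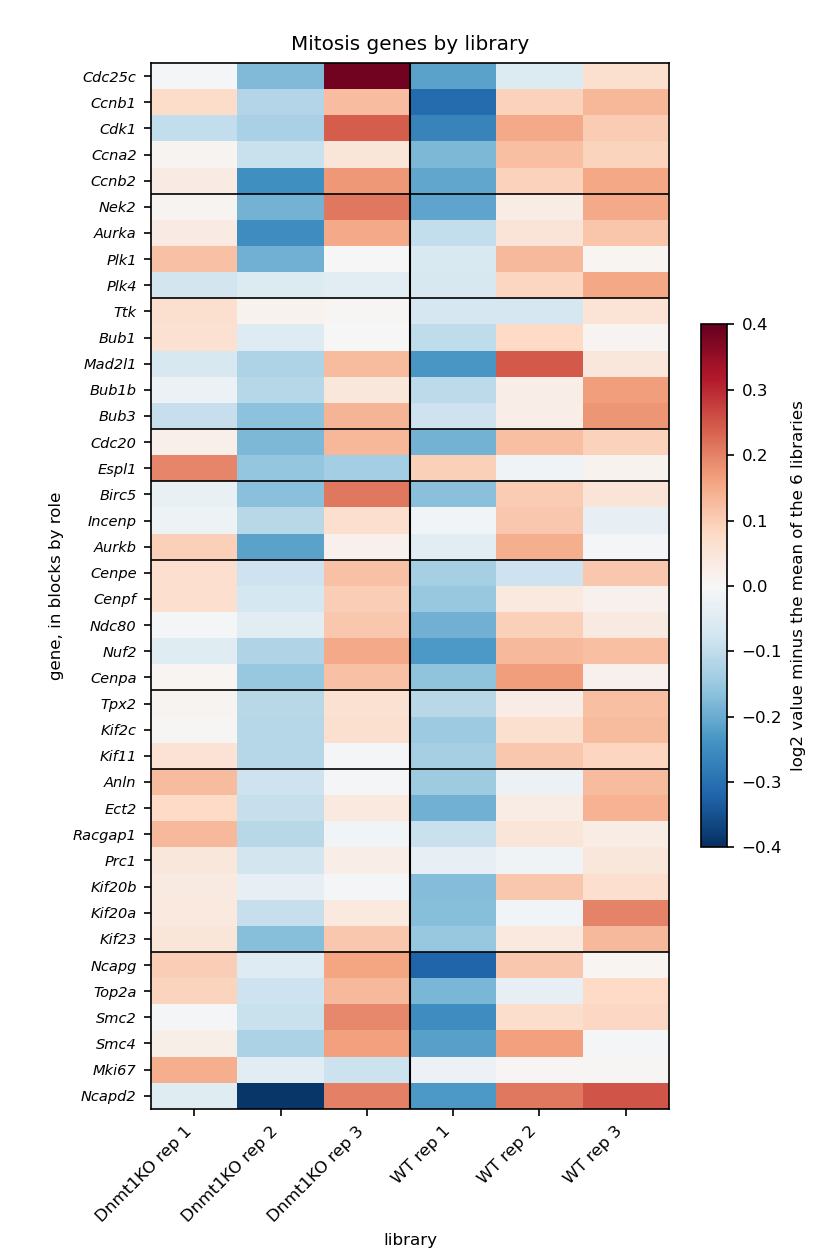
Each of the 40 mitosis genes (rows, in blocks by role) in the 3 Dnmt1KO libraries (left) and the 3 WT libraries (right), coloured by the log2 value minus the gene's mean over the 6 libraries. The columns of Dnmt1KO replicate 2 and WT replicate 1 are blue for most genes, with medians of -0.12 and -0.16, and the rows of Mki67, Plk4, Ttk and Espl1 depart from that pattern.

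Which library was left out decided the sign of the median difference. The median log2 difference of the 40 genes was -0.0047 over all libraries, against -0.000059 for all genes. Leaving out Dnmt1KO replicate 1, 2 or 3 gave -0.027, 0.057 and -0.050, and leaving out WT replicate 1, 2 or 3 gave -0.087, 0.035 and 0.030. The number of genes with a positive difference ran from 7 without WT replicate 1 to 34 without Dnmt1KO replicate 2. In each of these fits limma called 0 of the 40 genes, and 0 had an unadjusted p under 0.05. The mean of the SDs of the 2 groups' library medians was 0.12, more than any of these shifts.

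The promoters of several of these genes are printed here because the genes moved together between libraries. Mitosis genes share a short element, the cell cycle genes homology region (CHR), which MuvB binds, often near CCAAT boxes bound by NF-Y. RefSeq promoters on GRCm38.p6, from 250 bases before to 50 after a start, were matched by symbol for 33 of the 40 genes, without Aurkb, Ccna2, Cdc25c, Incenp, Kif20a, Smc4 and Tpx2. The stretches printed here are the 150 bases before the start, 5′ to 3′ on the strand of the gene, with the CHR letters TTTGAA and the letters CCAAT in capitals. Matches on the other strand, which read as TTCAAA and as ATTGG, are in capitals too. They show genes that followed the common library pattern (Cdk1, Cdc20, Top2a, Kif11), and Mki67 and Espl1, which departed from it in 1 group each. Ccnb1 and Birc5, also shown, followed the pattern without TTTGAA in the window. No other form of the CHR was searched for, so a promoter without TTTGAA may still hold the element.
Cdk1: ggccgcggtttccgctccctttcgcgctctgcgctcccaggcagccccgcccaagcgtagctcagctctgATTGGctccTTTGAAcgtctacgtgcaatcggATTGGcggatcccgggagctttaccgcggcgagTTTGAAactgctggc
Cdc20: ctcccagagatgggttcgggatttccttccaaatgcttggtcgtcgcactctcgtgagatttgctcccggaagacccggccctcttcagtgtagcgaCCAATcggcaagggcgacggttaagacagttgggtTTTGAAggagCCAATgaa
Top2a: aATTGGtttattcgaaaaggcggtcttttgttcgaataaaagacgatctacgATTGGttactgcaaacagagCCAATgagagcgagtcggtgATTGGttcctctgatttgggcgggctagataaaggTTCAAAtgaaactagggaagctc
Kif11: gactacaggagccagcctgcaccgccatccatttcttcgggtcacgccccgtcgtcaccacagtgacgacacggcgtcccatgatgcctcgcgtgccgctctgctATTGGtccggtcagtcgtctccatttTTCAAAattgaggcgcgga
Mki67: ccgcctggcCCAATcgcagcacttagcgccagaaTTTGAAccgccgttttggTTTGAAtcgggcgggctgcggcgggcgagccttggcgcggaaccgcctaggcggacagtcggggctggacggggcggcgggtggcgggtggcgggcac
Espl1: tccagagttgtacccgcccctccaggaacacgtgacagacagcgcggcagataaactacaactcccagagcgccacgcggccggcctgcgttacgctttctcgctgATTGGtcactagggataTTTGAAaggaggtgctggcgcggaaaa
Ccnb1: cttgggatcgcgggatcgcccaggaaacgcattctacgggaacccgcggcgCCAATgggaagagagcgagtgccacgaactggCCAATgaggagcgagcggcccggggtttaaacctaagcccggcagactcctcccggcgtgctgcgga
Birc5: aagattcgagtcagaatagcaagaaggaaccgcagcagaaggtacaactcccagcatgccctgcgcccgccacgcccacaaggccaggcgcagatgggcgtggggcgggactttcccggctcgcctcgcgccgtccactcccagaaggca

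The CHR letters differed in number and position between these genes. They began 15 and 71 bases before the start in Cdk1, 18 in Cdc20, 23 in Top2a, 19 in Kif11 and 27 in Espl1, and 98 and 116 bases before it in Mki67. For Mki67, Top2a and Espl1 the RefSeq gene begins upstream of the start used, so these distances depend on the start chosen. No match overlapped another in the stretches shown. The Ccnb1 stretch lies at chr13:100786487-100786636 and that of Birc5 at chr11:117849087-117849236, while those of Cdk1 and Mki67 lie at chr10:69352913-69353062 and chr7:135716380-135716529. The stretches of Cdc20, Top2a, Kif11 and Espl1 lie at chr4:118437344-118437493, chr11:99024190-99024339, chr19:37376232-37376381 and chr15:102296143-102296292.

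Within the full 300 bases, TTTGAA on either strand was found in the promoters of 25 of the 33 mitosis genes (75.8%), against 5466 of 27025 genes in the table (20.2%) and 1518 of the 10826 measured genes with a promoter (14.0%). The further mitosis genes had it in 38 of 74 (51.4%) and the S phase genes in 4 of 31 (12.9%). CCAAT was found in 25 of the 33 (75.8%), against 41.1% of all genes, 60.8% of the further mitosis genes and 61.3% of the S phase genes. Both sets of letters stood together in 21 of the 33 (63.6%), 35.1% of the further mitosis genes, 9.68% of the S phase genes and 7.97% of all genes. The share depended on the window. In the 250 bases before the start alone, TTTGAA was in 14 of the 33 (42.4%), against 18.3% of all genes, and both sets of letters in 13 (39.4%), against 6.45%. A match to these letters is a description of the sequence. The log2 difference between Dnmt1KO and WT had a median of -0.0002 in the 25 genes with TTTGAA and of 0.0079 in the 8 without.

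**Figure D4:**
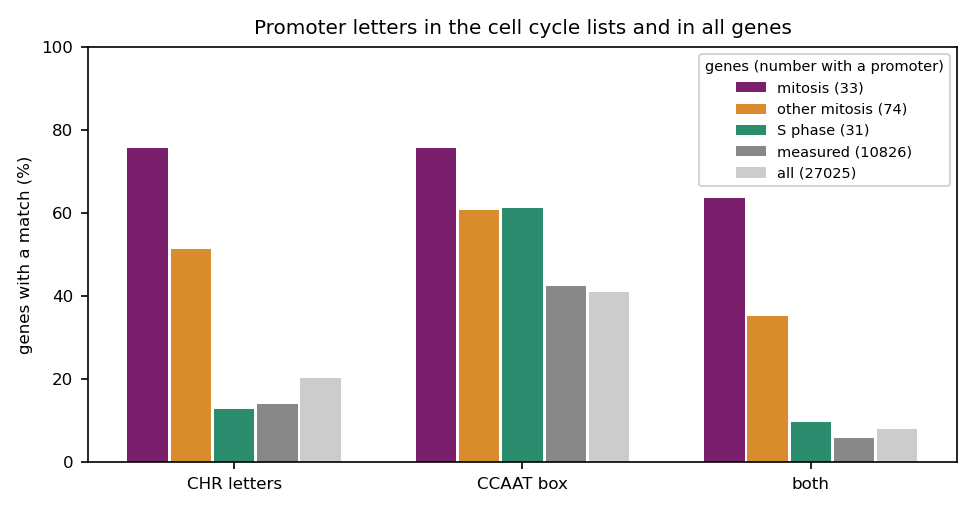
Share of genes (bars, in %) whose 300-base promoter holds the CHR letters, the CCAAT letters or both on either strand, for the mitosis genes, the further mitosis genes, the S phase genes, all measured genes and all genes of the promoter table. In this window the CHR letters are in 75.8% of mitosis genes and 12.9% of S phase genes.

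Markers of the cell types in the lung also differed between libraries. Summed over 15 epithelial marker genes, the Dnmt1KO libraries had 1201, 980 and 1376 CPM, and the WT libraries had 1194, 1388 and 1255. Dnmt1KO replicate 2, which was low in mitosis genes, had the lowest sum. WT replicate 1, also low in mitosis genes, had the lowest sum of the WT libraries, close to that of Dnmt1KO replicate 1. The median epithelial marker, as a log2 deviation from its mean over the 6 libraries, was at -0.17, -0.31 and 0.24 in Dnmt1KO. In WT it was at -0.012, 0.22 and 0.13. By this measure too, WT replicate 1 was lowest of the WT libraries, but it was above Dnmt1KO replicates 1 and 2. The sums of the 14 mesenchymal markers were 5949, 7073 and 5984 CPM in Dnmt1KO and 6883, 5672 and 5932 in WT, highest in Dnmt1KO replicate 2 and WT replicate 1. Their median deviations were -0.051, -0.026 and -0.11 in Dnmt1KO and 0.099, -0.10 and 0.027 in WT, highest in WT replicate 1 and near 0 in Dnmt1KO replicate 2. The 9 cardiac muscle genes stood at 58.4, 473 and 115 CPM in Dnmt1KO and at 105, 66.3 and 71.0 in WT. Heart, nerves and blood lie beside or within the lung at this stage, and the cardiac genes were highest in Dnmt1KO replicate 2. The 7 neuronal genes stood at 31.8, 71.9 and 55.4 CPM in Dnmt1KO and at 118, 25.1 and 58.5 in WT. The sums of the 16 erythroid genes were 2603, 2086 and 3652 CPM in Dnmt1KO and 1551, 2215 and 2200 in WT. All 16 had a positive difference, with a median of 0.51 and 3 at an unadjusted limma p under 0.05, against 4.52% of all genes. Markers of vessels, macrophages and the outer lining of the lung were measured as well. Endothelial markers (10 genes) lay between 547 and 721 CPM in Dnmt1KO and 442 and 697 in WT, macrophage markers (10) between 166 and 178 in Dnmt1KO and 169 and 182 in WT, and mesothelial markers (6) between 249 and 372 in Dnmt1KO and 246 and 348 in WT. No measured marker in these lists was at 0 reads in any library. In whole lung, fewer dividing cells and less RNA per cell cannot be told apart, and the part of these markers in the values of the mitosis genes was not tested.

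**Figure D5:**
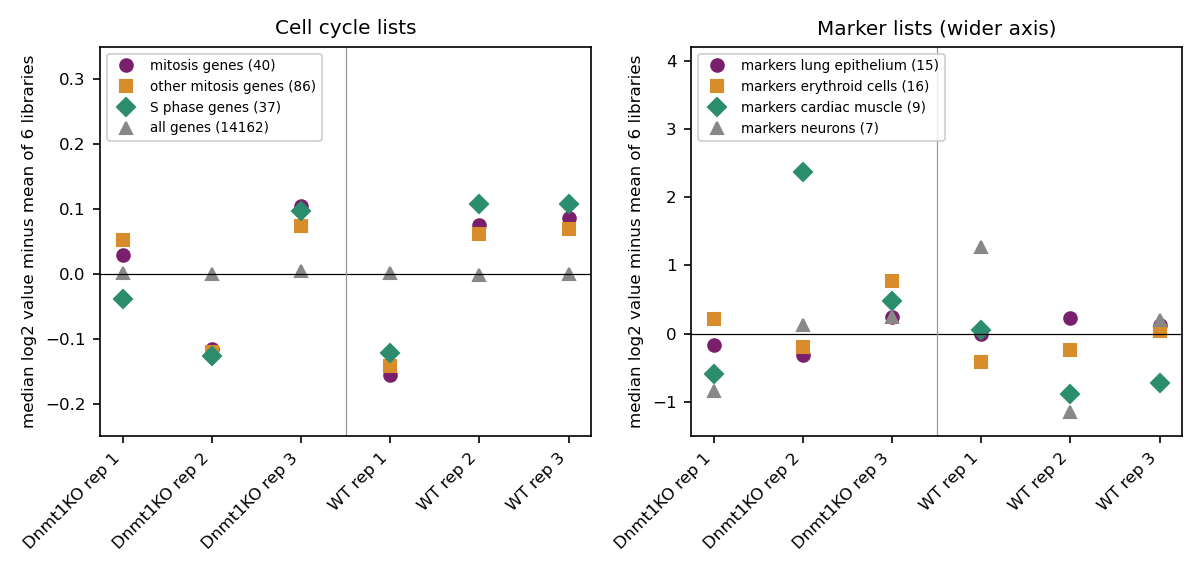
Median over each gene list of the log2 value minus the gene's mean over the 6 libraries, for the 3 Dnmt1KO libraries (left of the grey line) and the 3 WT libraries (right), with cell cycle lists and all genes in the left panel and marker lists on a wider axis in the right panel. All 3 cell cycle lists are low in Dnmt1KO replicate 2 and WT replicate 1, where all genes stay at 0, and the cardiac list peaks in Dnmt1KO replicate 2.

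Mki67 departed from the common pattern in the Dnmt1KO libraries, where replicate 3 was lowest, and Espl1 in the WT libraries, where replicate 1 was highest. Dnmt1KO replicate 3 minus replicate 1 was -0.23 for Mki67 and -0.33 for Espl1, but 0.34 for Cdk1 and 0.40 for Cdc25c. Exon length differed between these genes, at 10061 bases for Mki67 and 8749 for Espl1 against 4934 for Cdk1 and 4919 for Cdc25c. Members of like length also went the other way, with Top2a (9013 bases) at 0.039 and Ttk (4919 bases) at -0.060. Across the 6392 genes with a mean log2 value above 12 and a known length, the difference between Dnmt1KO replicates 3 and 1 had a Spearman correlation with length of -0.52, and across the 40 mitosis genes of -0.28. These are correlations across genes that share the same libraries and are given as a description. For the difference between Dnmt1KO and WT the same correlation was 0.0094 across the 6392 genes and 0.28 across the 40. Whether length bears on the mitosis genes was not tested.

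Mitosis genes outside the list gave similarly small values. A list of 86 further genes of spindle, kinetochore, condensin, anaphase-promoting complex and cytokinesis had 0 called higher and 0 called lower by limma. At an unadjusted p under 0.05 there were 2, and by voom the counts were likewise 0 and 2. Over all genes the limma share at that unadjusted p was 4.52%. The median difference of the 86 was 0.0084, with 47 above and 39 below 0. By library their medians were 0.052, -0.12 and 0.075 in Dnmt1KO and -0.14, 0.062 and 0.070 in WT, and 50 of the 86 were lowest in both Dnmt1KO replicate 2 and WT replicate 1. The smallest p was that of Wee1, the kinase that holds CDK1 inactive, at 12.72, 12.64 and 12.68 in Dnmt1KO and 12.90, 12.95 and 12.83 in WT. In Wee1 the groups did not overlap, as in 4 of the 86 genes and 8.78% of all genes. The Wee1 difference of -0.21 ± 0.08 did not pass (limma adjusted p = 0.856). Next were Psrc1, a microtubule-binding protein (0.35 ± 0.14), Pttg1, which encodes securin, the inhibitor of separase (0.34 ± 0.17), and Gtse1, a microtubule-associated protein that also binds p53 (0.18 ± 0.11), each with an adjusted p of 0.9999. S phase genes had 0 called of 37 with 2 at an unadjusted p under 0.05, by limma and by voom, beside the same 4.52% of all genes by limma. Of their 37 differences 31 were negative (median -0.053), against 7086 of all 14162 genes. Within their groups, 23 of the 37 were lowest in both Dnmt1KO replicate 2 and WT replicate 1, so these signs are not separate outcomes. Mcm2, a subunit of the replicative helicase, was at -0.21 ± 0.08 (limma adjusted p = 0.968). Pold1, the catalytic subunit of DNA polymerase delta, was at -0.21 ± 0.09 (adjusted p = 0.9999). The other S phase genes with the smallest p were the helicase gene Mcm5 and the licensing factor gene Cdt1, both at -0.14.

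The regulators of mitosis gene transcription did not pass the test either, with 0 of 23 called and 0 at an unadjusted p under 0.05 by limma and by voom. Their differences were below 0 in 18 and above 0 in 5, with a median of -0.065. Over all genes, 7086 were below and 7076 above 0. Foxm1, which activates genes of G2 and mitosis, stood at 14.05, 13.86 and 13.71 in Dnmt1KO and at 14.03, 14.05 and 13.86 in WT (-0.11 ± 0.10). Mybl2, which encodes B-MYB, had 12.72, 12.52 and 12.68 in Dnmt1KO and 12.70, 12.78 and 12.83 in WT (-0.13 ± 0.09). Among the Dnmt1KO libraries both were highest in replicate 1. E2f4, the repressor E2F of the DREAM complex (-0.20 ± 0.09), Rb1, the retinoblastoma gene (0.48 ± 0.25), and E2f1, an activator of S phase genes (-0.16 ± 0.09), were the others with the smallest p, each with a limma adjusted p of 0.9999.

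Among 11 measured inhibitors of the cell cycle, 6 differences were above and 5 below 0, with a median of 0.0002. Of the 11, 0 passed by limma or voom, with 3 and 2 at an unadjusted p under 0.05. The limma share over all genes at that unadjusted p was 4.52%. The inhibitor gene Cdkn1b, which encodes p27, was at -0.0063, while some p53 targets had the widest differences of the list. Cdkn1a, which encodes p21, stood at 12.48, 11.91 and 10.34 in Dnmt1KO and at 8.90, 8.99 and 8.76 in WT, and its difference of 2.69 ± 0.49 did not pass (limma adjusted p = 0.128), though it did without Dnmt1KO replicate 3 (3.31, adjusted p = 0.000667) and with sample weights (2.94, adjusted p = 0.0323). Over all alternatives the limma adjusted p of Cdkn1a ran from 0.000667 to 0.581. Ccng1, a p53 target that encodes cyclin G1, had 13.69, 13.42 and 12.67 in Dnmt1KO and 12.07, 12.37 and 12.03 in WT (1.10 ± 0.24, adjusted p = 0.219, and adjusted p = 0.00613 without Dnmt1KO replicate 3, within a range over alternatives of 0.00613 to 0.856). Side by side, Dnmt1KO replicate 1 had the highest Cdkn1a and a median of mitosis genes of 0.029 from the mean of 6 libraries, replicate 2 had the next highest Cdkn1a and -0.12, and replicate 3 the lowest Cdkn1a of the 3 and 0.10. WT replicate 1 had a median of -0.16 with a Cdkn1a value between those of the other WT libraries. Whether Cdkn1a bears on the mitosis genes was not tested. Sesn2, a stress gene that p53 induces, differed by 0.63 ± 0.26 and the imprinted inhibitor gene Cdkn1c by -0.24 ± 0.16, both with an adjusted p of 0.9999.

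Of 10 genes that act before DNA replication, cyclins, their kinases and Myc genes, 0 passed by limma or voom and 4 had an unadjusted p under 0.05 by each. Over all genes the limma share at that unadjusted p was 4.52%. Their differences were below 0 in 8 and above 0 in 2 (Cdk2, the partner of cyclin E, at 0.040 and the growth-promoting factor gene Myc at 0.0069), with a median of -0.11. Ccnd1, which encodes cyclin D1, the partner of CDK4 and CDK6 in G1, had values of 14.43, 14.51 and 14.61 in Dnmt1KO and of 14.75, 14.77 and 14.86 in WT (-0.27 ± 0.08, limma adjusted p = 0.533). Ccnd2, which encodes cyclin D2, stood at 15.62, 15.77 and 15.71 in Dnmt1KO and at 15.95, 16.07 and 15.83 in WT (-0.25 ± 0.09, adjusted p = 0.833). Every Dnmt1KO value lay below every WT value in both genes, and also in Mycn and Ccne1. These made 4 of the 10 without overlap, against 8.78% of all genes. Mycn, a growth-promoting transcription factor of the lung bud (-0.34 ± 0.14), and Ccne1, which encodes cyclin E1 (-0.20 ± 0.09), followed with an adjusted p of 0.9999 each.

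Reads of a few members could also come from a neighbour. In GENCODE, exons of 10 of the 40 genes overlap those of another gene. The strand is the same for Ncapd2 and Top2a, each with a small nucleolar RNA gene, and Ncapd2 also overlaps the sense-intronic gene Gm28967. It is the opposite strand for Ccna2, Cdc20, Cdc25c, Kif20a, Ncapg, Nek2, Plk1 and Prc1. Whether the authors' counting used the strand is not given in the sources used here, so for those 8 genes the reads of the neighbour may not be separable.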

How the data were processed

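The deposited data are 1 table per library, in which the authors gave log2 values by Ensembl identifier under the heading SIGNAL. STAR, limma and the build mm9 appear in the submitters' processing notes with no version or role. The sources used here do not give the read counter, the annotation or the scaling. Raising 2 to a deposited value returned a whole number of reads plus 0.5, times a constant of the library, for 100% of the 14162 genes (tolerance 1e-06 reads). The lowest gene total was 60 reads over the 6 libraries. GENCODE M21 (GRCm38) gave symbols and exon lengths by identifier for 13967 genes.

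Genotype was the only term of a limma fit (limma 3.58.1, R 4.3.3) to the log2 values of all genes, with trend and robust moderation and Benjamini-Hochberg adjustment over all genes (threshold 0.05). The fit was also run on 5 simulated data sets, where it found 69.6% of 1.5-fold changes. Their noise was independent between genes, so they do not show how the fit handles shifts shared by many genes. Intervals are 95% from the moderated fit, one gene at a time. The members and lists were chosen with earlier results of these data known. Values in every library are given for the member with the smallest p in each role, the 6 highest and 6 lowest differences, Mki67, Top2a, Cdk1, Ccnb1 and Plk1, and from each other list up to 4 genes with the smallest p are named, beside Dnmt1, Cdkn1a, Foxm1 and Mybl2. The alternatives were a replicate block, a filter on low values that left out 25% of the genes, quantile normalization, median centring, scaling to read totals, voom with TMM factors, plain moderation, sample weights, and each library left out in turn.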

Additional observations from a re-analysis of the deposited data

How the results depend on the processing

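limma called 0 of the 40 mitosis genes, and 0 of the further mitosis and S phase genes, under every alternative run, and the smallest adjusted p among the 40 was 0.671, with sample weights. Over all genes the count called higher was 26 with the replicate block, 24 with voom and 0 with the lowest 25% of genes left out, and the count called lower was 0 with the replicate block, without those genes and with plain moderation, and 12 with sample weights. With 1 library left out, these counts lay between 15 and 42 and between 0 and 17. Whether the replicate numbers pair the libraries could not be decided with 3 libraries per group, whose deviations from the group mean depend on each other. These deviations correlated at -0.0027, -0.18 and 0.31 over all genes for same-numbered libraries, and at 0.38 for Dnmt1KO replicate 2 with WT replicate 1. Of the 3 Dnmt1KO libraries, 1 correlated best with its own number. The block changed no sign or call among the genes named. With 1 library left out, the median of the 40 lay between -0.087 and 0.057. It was -0.083 with sample weights, 0.019 with quantile normalization and 0.010 with scaling to read totals, all within the spread of the library medians of 0.12.

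Of the small differences, 31 of the 40 changed sign under some alternative, and 9 did not. With 1 library left out, several of these 9 came close to 0, with ranges of 0.021 to 0.15 for Top2a, -0.17 to -0.014 for Bub3, -0.18 to -0.069 for Plk4, 0.036 to 0.095 for Ttk, 0.0032 to 0.12 for Cenpf, -0.092 to -6.8e-05 for Incenp, -0.18 to -0.00021 for Espl1, -0.31 to -0.0031 for Ncapd2, 0.0065 to 0.22 for Ncapg. The cause was not tested. With quantile normalization the log2 differences became 0.012 for Ccna2, 0.012 for Cdc20, 0.021 for Kif20a, 0.022 for Kif20b, 0.017 for Kif23, 0.012 for Cenpa, 0.0080 for Nuf2. With scaling to read totals they were 0.0060 for Kif20a, 0.015 for Kif20b, 0.0015 for Kif23, 0.0014 for Nuf2, while with median centring and with voom Kif20b became 0.0025 and 0.0012. With sample weights they were -0.069 for Ccnb1, -0.10 for Cdk1, -0.0099 for Cdc25c, -0.017 for Bub1, -0.11 for Nek2, -0.023 for Cenpe, -0.017 for Ndc80, -0.085 for Birc5, -0.041 for Prc1, -0.057 for Anln, -0.073 for Ect2, -0.038 for Racgap1, -0.035 for Smc2, -0.025 for Smc4. With 1 library left out, those that changed sign had ranges of -0.056 to 0.059 for Mki67, -0.043 to 0.050 for Bub1, -0.13 to 0.050 for Nuf2, -0.024 to 0.039 for Prc1, -0.044 to 0.094 for Anln, -0.076 to 0.092 for Ect2, -0.056 to 0.062 for Racgap1, -0.12 to 0.036 for Ccna2, -0.14 to 0.085 for Ccnb2, -0.12 to 0.069 for Cdc20, -0.13 to 0.067 for Aurka, -0.13 to 0.022 for Aurkb, -0.16 to 0.075 for Mad2l1, -0.12 to 0.028 for Plk1, -0.12 to 0.0088 for Kif11, -0.097 to 0.089 for Kif20a, -0.087 to 0.053 for Kif20b, -0.092 to 0.071 for Kif23, -0.11 to 0.026 for Kif2c, -0.10 to 0.061 for Cenpa, -0.088 to 0.026 for Tpx2, -0.12 to 0.086 for Cdk1, -0.023 to 0.26 for Cdc25c, -0.079 to 0.12 for Nek2, -0.049 to 0.097 for Ndc80, -0.096 to 0.095 for Birc5, -0.046 to 0.12 for Smc2, -0.055 to 0.13 for Smc4, -0.090 to 0.13 for Ccnb1, -0.13 to 0.0061 for Bub1b. Every member had at least 683 reads in each library, and each interval rests on 3 libraries per group.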
